A study of Mus musculus with 4 samples.

Results

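Angiopoietin-like genes encode secreted glycoproteins that resemble the angiopoietins. Of 5 such genes named for study (Angptl1, Angptl2, Angptl4, Angptl6 and Angptl7), 3 could be read from the arrays: Angptl1, Angptl4 and Angptl7, each from 1 probe set that carried no other gene symbol, among 22180 genes measured in that way. Angptl2 had no probe set listed under its symbol and was not analysed here. Angptl6 appeared only on a probe set that it shared with its overlapping neighbour Shfl, so no value is given for it. The set was chosen because Angptl4 and Angptl7 were much higher in knockout cells, so the differences of the members between knockout and wild type are given as a description, with no test.

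The study measured gene expression in mouse skeletal stem cells (SSCs), the cells that form bone, cartilage and marrow stroma. Cells from mice 4 to 6 weeks old, either Mmp14+/+ (wild type, 2 arrays) or Mmp14-/- (knockout, 2 arrays), were kept in 3D collagen gels for 48 h in both groups before RNA was taken. Mmp14 encodes MT1-MMP, a membrane-anchored protease that cleaves collagen. The labels do not say how Mmp14 was inactivated, whether cells of several mice were pooled, or whether the replicates came from separate animals, so the p-values measure only the spread between these arrays, which may be technical. Values are the deposited log2 intensities, on which a difference of 1 is a doubling, and differences are knockout minus wild type.

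Angptl4 binds and inactivates lipoprotein lipase, the enzyme that releases fatty acids from circulating triglyceride. Its gene is a target of the PPAR nuclear receptors and is also induced by hypoxia and by glucocorticoids. The protein is cut by proprotein convertases into an N-terminal part that acts on the lipase and a C-terminal fibrinogen-like part. Angptl7 is best known from the cornea and the trabecular meshwork of the eye, where glucocorticoids induce it. Angptl1 is a secreted relative studied for its effects on blood vessels.

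The labels were checked first. Mmp14 read 8.77 and 8.83 in the wild-type arrays and 5.77 and 5.84 in the knockout arrays. On the linear scale 12.6% of the wild-type signal was left in knockout, and what this signal stands for was not tested. The stromal markers of the labelled cell type were present: all 10 that could be read were above the limit for dim genes (a mean of 2.34, the median of all probe sets), with Prrx1, a transcription factor of limb mesenchyme, near 10.2 in both groups. Of these 10 markers 4 were higher in knockout: Cxcl12 (difference 1.81), Pdgfra (1.77), Cd200 (1.46) and Nt5e (1.10). The 1 that was lower was Lepr, which fell from 8.19 to 5.93 (difference −2.26, limma adjusted p = 0.000995). The summed linear intensity of the 10 was 3313 and 3318 in the wild-type arrays and 4234 and 4037 in the knockout arrays. None of 6 endothelial markers had a mean that reached the limit. Of the 6 markers of macrophages and leukocytes, 3 were above it, and the intensities of all 6 summed to 52.2 and 47.2 in the wild-type arrays, against 44.5 and 49.8 in the knockout arrays. All 4 chondrocyte markers were above the limit. Of these Acan, the cartilage proteoglycan gene, had a difference of −1.97 (limma adjusted p = 0.00469), the only 1 of the 4 called. Col2a1 (−0.08), Col9a1 (−0.07) and Matn3 (−0.03) were not called (adjusted p = 0.699, 0.855 and 0.963). The 4 summed to 2399 and 2358 in the wild-type arrays and to 1547 and 1821 in the knockout arrays. The lower sum does not show a fall of the markers other than Acan. Markers of sex moved with the genotype: Xist, expressed from the inactive X chromosome, was 0.73 higher (limma adjusted p = 0.0155) and the Y-linked Eif2s3y was 0.69 lower in knockout (0.0474). Both were above the limit in every array, with Xist at 8.45 to 9.30 and Eif2s3y at 5.19 to 6.18. Whether each array held cells of both sexes was not tested. Xist was not called without knockout replicate 1 (0.0801), nor Eif2s3y without that array (0.176), knockout replicate 2 (0.0648) or wild type replicate 1 (0.107). The part of the stromal, chondrocyte and sex markers in the results below was not tested. In bulk RNA, a change in the share of cells that express a gene cannot be told apart from a change in RNA per cell.

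Angptl4 read 5.21 and 5.38 in the wild-type arrays and 8.07 and 8.04 in the knockout arrays. Both knockout arrays lay far above both wild-type arrays, and the gap between the lower knockout array and the higher wild-type array was 2.67. The group means were 5.29 ± 0.11 and 8.06 ± 0.02 (SD, n = 2 each). The difference was 2.76 (SE 0.110), or 6.78-fold higher in knockout. Replicates differed by 0.16 in wild type and by 0.02 in knockout. Among the 12708 genes tested, ranked from the most raised in knockout downwards, Angptl4 stood at place 15, and 0.118% of genes had a difference at least as large. Angptl4 and Angptl7 were chosen for their rise, so their places in this ranking are a description only.

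Angptl7 read 4.23 and 3.96 in the wild-type arrays and 6.96 and 7.27 in the knockout arrays. Here too the groups were well apart, with a gap of 2.74 between the nearest arrays of the opposite groups. The means were 4.10 ± 0.18 in wild type and 7.12 ± 0.22 in knockout (SD, n = 2 each). The difference was 3.02 (SE 0.153), or 8.11-fold higher in knockout, at place 10 of the same ranking. Angptl7 varied more between replicates than Angptl4, by 0.26 in wild type and 0.31 in knockout.

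Angptl1 read 1.46 and 1.33 in the wild-type arrays and 1.54 and 1.58 in the knockout arrays. All 4 values were below the limit of 2.34 for dim genes, so the gene was left out of the fit and no fold is given. The knockout arrays were the higher ones, but by only 0.08 between the nearest arrays, while the wild-type replicates differed by 0.13. Signal this low does not show whether Angptl1 is expressed in these cells or differs between them. Of the 3 genes measured, 2 thus passed the filter on dim genes. In both the groups did not overlap, as in 57.8% of all tested genes, and because the set was chosen on this contrast nothing is read from that. For the other genes below, called means a limma adjusted p below 0.05, which held for 11.3% of all tested genes, 6.2% higher and 5.12% lower in knockout.

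**Figure D1:**
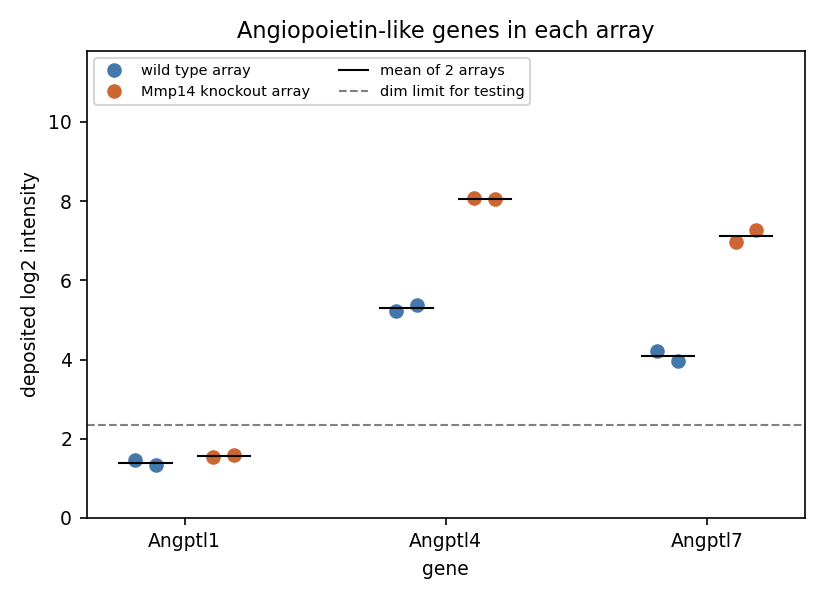
Deposited log2 intensity of Angptl1, Angptl4 and Angptl7 in each of the 2 wild-type and 2 Mmp14 knockout arrays (points), with the mean of each group (short lines) and the limit of 2.34 below which genes were not tested (dashed). Angptl4 goes from about 5.29 to 8.06 and Angptl7 from 4.10 to 7.12, while Angptl1 stays below the limit in all 4 arrays.

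Among relatives outside the set, Angptl8, which lacks the fibrinogen-like domain, was dim like Angptl1, at 2.04 and 2.03 in wild type against 2.25 and 2.05 in knockout. The angiopoietins proper were compared as the closest family. Angpt1, the ligand that activates the receptor Tek, read 6.10 and 6.01 in wild type against 6.54 and 6.04 in knockout, and Angpt2, a context-dependent ligand of the same receptor, read 3.58 and 3.79 against 3.98 and 3.85. Neither was called (limma adjusted p = 0.444 and 0.282), with differences of 0.24 (SE 0.178) and 0.23 (SE 0.122), and neither had an unadjusted p below 0.05. The direction of Angpt1 was not settled: its difference was −0.06 with its probe sets averaged, −0.01 without knockout replicate 1 and 0.49 without knockout replicate 2. Angpt4 and the receptor genes Tek and Tie1 were below the limit. The high values of Angptl4 and Angptl7 in knockout were therefore not accompanied by a called change in either measured angiopoietin.

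The fibrinogen-like domain also occurs in tenascins, fibrinogen chains and ficolins. Of 13 such genes, 10 were dim, and of the 3 tested, 2 fell (5.12% of all tested genes did) and 0 rose, with a median difference of −1.07 against −0.0041 over all tested genes. Tnn, which encodes tenascin-W, fell from 6.28 ± 0.52 to 3.21 ± 0.74 (SD, n = 2, limma adjusted p = 0.0071), and Mfap4, a microfibril-associated protein, from 5.17 ± 0.05 to 4.11 ± 0.27 (adjusted p = 0.0101). Tnc, which encodes tenascin-C, was 0.40 lower and not called (adjusted p = 0.0719), although it was with trend and robust eBayes (0.0184) and under the stricter filter (0.024). Both called relatives by domain were thus lower in the arrays in which Angptl4 and Angptl7 were higher. When all probe sets were fitted together, without the filter on dim genes, Tnn (adjusted p = 0.0839) and Mfap4 (0.0961) were not called.

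Angiopoietin-like genes often lie inside or beside unrelated genes, which gave a comparison by position that did not depend on how a gene moved. By the RefSeq annotation of GRCm38.p6, Angptl1 lies within Ralgps2 and Angptl7 within Mtor, while Angptl4 lies between Rab11b and Kank3. Of the 7 hosts and nearest protein-coding genes of Angptl1, Angptl4 and Angptl7 that were tested, 2 rose, 0 fell and 5 were not called, against 11.3% of all genes called.

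Kank3, the gene next to Angptl4, encodes an ankyrin-repeat protein of a family that regulates the actin cytoskeleton. It read 3.76 and 3.61 in wild type against 5.78 and 5.81 in knockout. Kank3 rose by 2.11 (SE 0.109, limma adjusted p = 0.000917), or 4.33-fold. Rab11b, a vesicle-traffic GTPase gene on the other side of Angptl4, read 9.51 and 9.38 against 9.63 and 9.50 and was not called (difference 0.12, SE 0.112, adjusted p = 0.545). The 2 neighbours of Angptl4 therefore had unlike values, with the raised one on the Kank3 side; whether they differ from each other was not tested.

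Mtor, the growth-regulating kinase gene that holds Angptl7, read 6.72 and 6.68 in wild type against 6.67 and 6.56 in knockout. Its difference was −0.09 (SE 0.104, limma adjusted p = 0.642), while Angptl7 inside it was 3.02 higher. The next gene, Exosc10 of the RNA exosome, differed by 0.04 (SE 0.112, adjusted p = 0.854). At Angptl1 it was the host that was called: Ralgps2, an exchange factor gene for Ral GTPases, rose from 3.36 ± 0.04 to 4.11 ± 0.01 (SD, n = 2, difference 0.75, SE 0.101, adjusted p = 0.00881), while Angptl1 stayed below the limit. Fam20b and Tex35, the nearest genes on either side, were not called (adjusted p = 0.342 and 0.746). Ralgps2 was not called when all probe sets were fitted together (adjusted p = 0.0861), in which Kank3 remained called (0.03).

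**Figure D2:**
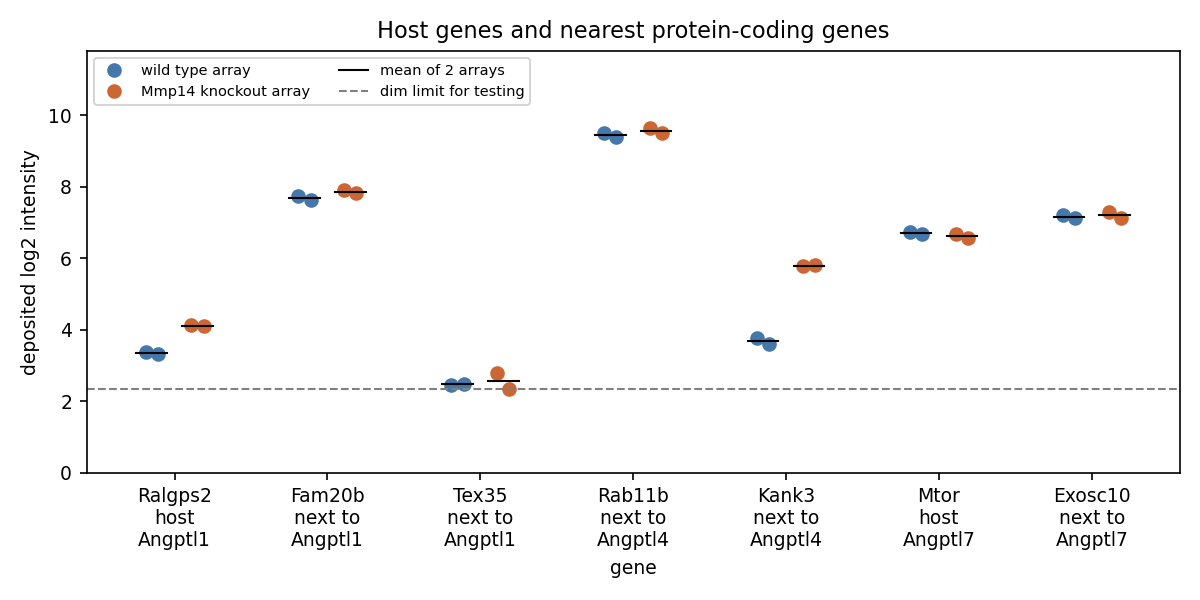
Deposited log2 intensity of the genes that hold or lie next to Angptl1, Angptl4 and Angptl7, in each of the 2 wild-type and 2 Mmp14 knockout arrays (points, group means as short lines, limit for dim genes dashed). Kank3 goes from 3.68 to 5.80 and Ralgps2 from 3.36 to 4.11, while Mtor, which holds Angptl7, stays near 6.7.

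Upstream sequence is shown for Angptl7 and for Kank3, a raised member and the called neighbour of the other, from RefSeq promoter windows (GRCm38.p6). The window of Angptl1 was searched as well, and none was listed for Angptl4. Each sequence below is the 250 bases before the transcription start, 5′ to 3′ on the gene's own strand. The Angptl7 stretch lies on the minus strand at chr4:148500463-148500712 and the Kank3 stretch on the plus strand at chr17:33810273-33810522.
Angptl7: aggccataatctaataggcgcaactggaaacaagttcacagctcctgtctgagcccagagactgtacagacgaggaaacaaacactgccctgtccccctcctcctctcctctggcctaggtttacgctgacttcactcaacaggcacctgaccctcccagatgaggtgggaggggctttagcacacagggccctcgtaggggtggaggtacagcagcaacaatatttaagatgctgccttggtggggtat
Kank3: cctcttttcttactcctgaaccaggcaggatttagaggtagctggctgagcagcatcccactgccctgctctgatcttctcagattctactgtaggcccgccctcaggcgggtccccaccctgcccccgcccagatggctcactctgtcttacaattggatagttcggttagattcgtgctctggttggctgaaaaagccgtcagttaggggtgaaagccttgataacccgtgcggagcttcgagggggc
Of the bases shown, 54.4% were G or C for Angptl7 and 56.4% for Kank3, against a median of 52.4% over the same stretch of 32851 windows. The full windows, which run 50 bases past the start, were searched on both strands for 8 motifs, and no match was found for Angptl1, Angptl7 or Kank3, which is why no base is in capitals. The nuclear receptor hexamer AGGTCA occurred in 16.3% of all windows, the PPAR/RXR direct repeat, a pair of these hexamers set 1 base apart, in 0.0396%, and the glucocorticoid receptor palindrome in 0.475%. The hypoxia response core ACGTG occurred in 19.6%, the AP-1 site TGANTCA in 7.81%, the TEAD site GGAATG in 14.7%, the TCF/LEF core CTTTGA in 16% and the TATA box TATAAA in 13.6%. The absence of a match says only that these letters are not in these windows.

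The factors that act on Angptl4 were taken next. Of 8 tested, 1 rose, 0 fell and 7 were not called, a share near the 11.3% of all tested genes called, with a median of 0.01. The gene that rose was Pparg, the nuclear receptor that drives fat cell formation, at 4.23 and 4.73 in wild type against 6.84 and 6.74 in knockout (difference 2.31, SE 0.177, limma adjusted p = 0.00158). Its knockout arrays were both above its wild-type arrays, but the groups did not overlap in 57.8% of all tested genes. Ppard, the more widely expressed PPAR, differed by 0.38 (SE 0.133, adjusted p = 0.134), and Ppara was below the limit. Rxra differed by −0.16 and was not called (limma adjusted p = 0.413). The hypoxia factor genes Hif1a, Epas1 and Arnt and the glucocorticoid receptor gene Nr3c1 had differences between −0.12 and 0.02, none of them called (adjusted p from 0.539 to 0.963), which says nothing of the activity of their proteins.

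Other PPAR target genes gave a mixed picture. Of 11 tested, 4 rose, 0 fell and 7 were not called, where 6.2% of all tested genes rose, with a median of 0.18. Pdk4, a kinase that spares glucose, read 5.83 and 5.69 in wild type against 6.92 and 6.87 in knockout and rose by 1.14 (SE 0.108, limma adjusted p = 0.00293). The lipid droplet gene Plin4 (1.36, adjusted p = 0.0178) and the fatty acid oxidation genes Cpt1a (0.89, 0.0159) and Acadm (0.61, 0.0244) also rose. Each of these differences was below that of Angptl4, which was chosen for its large rise, so nothing is read from that. Plin2, the lipid droplet gene that like Angptl4 responds to all PPARs, had a difference of −0.09 (adjusted p = 0.632), and Hadha one of 0.04 (0.854). Acadm was not called when either wild-type array or knockout replicate 1 was left out (0.0676 to 0.135), nor Cpt1a without knockout replicate 1 (0.0565). With all probe sets fitted together Pparg and Pdk4 stayed called, while Plin4 (0.135), Cpt1a (0.122) and Acadm (0.154) did not. Of the markers of mature fat cells, Adipoq and Fabp4 were tested and not called (adjusted p = 0.589 and 0.856), while Plin1, Cidec and Lep were below the limit. All 5 read 3.11 or less in every array, and their linear intensities summed to 25.1 and 24.9 in the wild-type arrays, against 24 and 23.5 in the knockout arrays.

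Angptl4 acts on the lipoprotein lipase pathway, for which 8 of 12 measured genes were bright enough to test. Of these 2 rose, 1 fell and 5 were not called, against 11.3% of all tested genes called, with a median of 0.11. Lpl, the lipase that Angptl4 inhibits, read 2.79 and 2.59 in wild type against 3.80 and 3.48 in knockout and rose by 0.95 (SE 0.148, limma adjusted p = 0.0142). Its wild-type signal lay just above the limit for dim genes, and the rise was 0.45 (adjusted p = 0.0486) with its probe sets averaged, so its size is uncertain. It was not called without wild type replicate 2 (0.0526). Apoe, an apolipoprotein gene, rose by 0.83 (adjusted p = 0.0449), and this call was lost without either wild-type array or without knockout replicate 1 (0.105 to 0.121), which also lowered the difference to 0.55. Vldlr, a receptor for triglyceride-rich lipoproteins, fell by 1.44 (SE 0.130, adjusted p = 0.00245). Lmf1 and Sel1l, needed to fold the lipase, were not called (differences −0.0063 and 0.16, adjusted p = 0.981 and 0.39), and Gpihbp1, which carries the lipase to capillaries, was below the limit. Larger differences that were not called either were those of Lipg (−0.42, limma adjusted p = 0.177) and Lrp1 (0.41, 0.133). With all probe sets fitted together Vldlr stayed called (0.0454), and Lpl (0.114) and Apoe (0.225) did not.

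**Figure D3:**
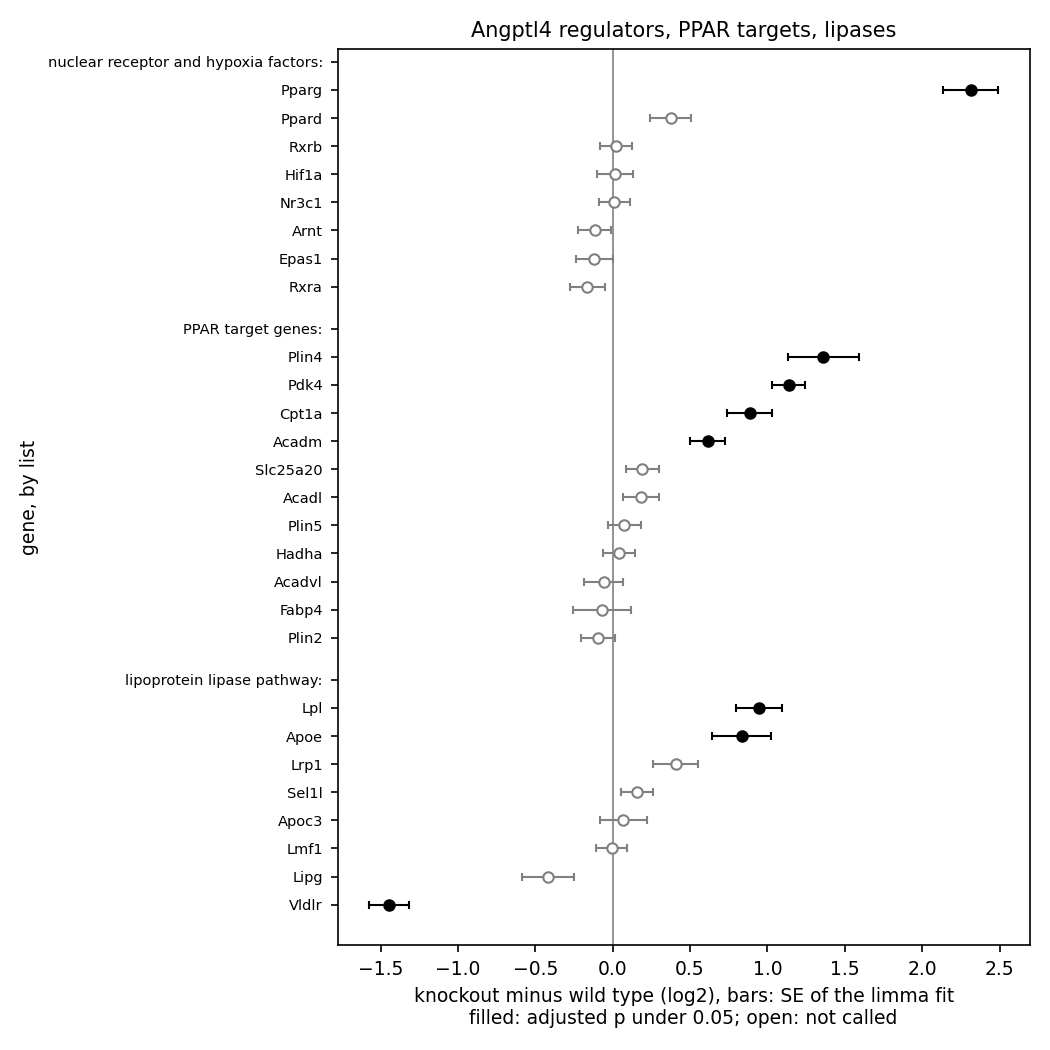
Differences (knockout minus wild type, log2, with SE) of the tested genes among the factors that act on Angptl4, the PPAR targets and the lipoprotein lipase pathway; filled points passed a limma adjusted p of 0.05 and open points did not. Pparg stands at 2.31, 4 PPAR targets lie between 0.61 and 1.36, and Vldlr is lowest at −1.44.

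The 4 convertases that cut Angptl4 and related proteins were all tested, and 0 rose and 0 fell: Furin differed by −0.19, Pcsk5 by 0.13, Pcsk6 by 0.15 and Pcsk7 by −0.34 (limma adjusted p from 0.083 to 0.583). Pcsk7 passed only under the stricter filter (0.0317). At an unadjusted p below 0.05, Pcsk7 alone would pass (0.0137).

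Cell-surface partners reported for one or another angiopoietin-like protein were then compared. Of 8 tested, 2 rose, 0 fell and 6 were not called, where 6.2% of all tested genes rose, with a median of 0.15. Itgb3, the beta subunit of a vitronectin-binding integrin, read 4.87 and 4.97 in wild type against 6.29 and 6.22 in knockout and rose by 1.34 (SE 0.105, limma adjusted p = 0.00172). Cdh11, a cadherin of mesenchymal cells, rose by 0.73 (adjusted p = 0.0105), though not without knockout replicate 1 (0.0592) or with all probe sets fitted together (0.0946). Itgav, which pairs with Itgb3, was 0.58 higher and was not called (0.0527). It passed under quantile normalization (0.044), trend and robust eBayes (0.00726), the stricter filter (0.013) and without knockout replicate 2 (0.0366), while its difference was 0.30 (adjusted p = 0.151) with its probe sets averaged and 0.41 (0.227) without knockout replicate 1. Itga5 and Itgb1, the subunits of a fibronectin receptor reported to bind Angptl2, differed by −0.29 and −0.04 (adjusted p = 0.134 and 0.836). Itga5 passed only with trend and robust eBayes (0.0373). Pirb and Lilrb4a, leukocyte receptors of Angptl2 and related proteins, were below the limit.

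Because both Angptl4 and Angptl7 are known glucocorticoid-induced genes, 10 others of that kind were set beside them: 3 rose, 2 fell and 5 were not called, where 6.2% of all tested genes rose and 5.12% fell, with a median of 0.16. The metallothionein genes Mt2 (1.28, limma adjusted p = 0.00329) and Mt1 (0.92, 0.0111) and the EGF receptor inhibitor Errfi1 (0.93, 0.00638) rose, and the transcription factor genes Klf9 (−1.56, 0.00189) and Zbtb16 (−0.81, 0.0302) fell. Zbtb16 was dim, with means of 2.79 in wild type and 1.98 in knockout, the latter below the limit for dim genes. Fkbp5, Per1, Tsc22d3 and Sgk1, which respond in many tissues, had differences from −0.15 to 0.30 and were not called (adjusted p from 0.267 to 0.614). Dusp1 was 0.42 lower and was not called either, though close to the threshold (limma adjusted p = 0.0519). Zbtb16 was not called without either wild-type array or without knockout replicate 2 (0.0504 to 0.102). With all probe sets fitted together only Klf9 of the 5 called genes stayed called (0.0409), with Mt2 at 0.054, Errfi1 at 0.0739, Mt1 at 0.101 and Zbtb16 at 0.182.

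Of 10 tested hypoxia-induced genes, 1 rose, 0 fell and 9 were not called, a share near the 11.3% of all tested genes called, with a median of −0.08. Adm, the adrenomedullin gene, rose by 1.90 (SE 0.157, limma adjusted p = 0.00196), from 5.35 and 4.95 in wild type to 7.12 and 6.97 in knockout. Vegfa was 0.35 lower (adjusted p = 0.118, passing only under the stricter filter at 0.0494), and Slc2a1, Pgk1 and Ldha differed by −0.21, −0.25 and −0.07 (0.214 to 0.824). Ndrg1 was 0.28 lower and Car9 0.26 higher, and neither was called (limma adjusted p = 0.149 and 0.203). With their probe sets averaged, the differences of Ndrg1 and Car9 were −0.06 and −0.01.

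For Angptl7, genes of tendon and corneal stroma, tissues of dense collagen, were compared. Of 8 tested, 1 rose, 4 fell and 3 were not called, where 6.2% of all tested genes rose and 5.12% fell, with a median of −0.66. Comp, a cartilage and tendon matrix protein gene, fell by 1.21 (limma adjusted p = 0.00267), beside the lower Acan among the chondrocyte markers, with Prg4, a lubricin gene (3.34 to 2.34, 0.0349), Tppp3 (−0.90, 0.00535) and the tendon transcription factor gene Scx (−0.86, 0.0079). Mkx, another tendon transcription factor gene, rose by 0.66 (0.0411), and Tnmd was 0.40 higher and not called (0.182). The wild-type mean of Mkx (2.38) and the knockout mean of Prg4 (2.34) lay close to the limit for dim genes. The proteoglycan genes Fmod (−0.45, 0.0507) and Lum (−0.28, 0.155) were not called either. Kera, a corneal proteoglycan gene, was below the limit. Prg4 lost its call without wild type replicate 1 (0.092) or knockout replicate 1 (0.0995), and Mkx without either wild-type array or without knockout replicate 1 (0.0702 to 0.169). With all probe sets fitted together Comp stayed called (0.0462) and Scx (0.0832), Tppp3 (0.0667), Prg4 (0.197) and Mkx (0.211) did not.

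**Figure D4:**
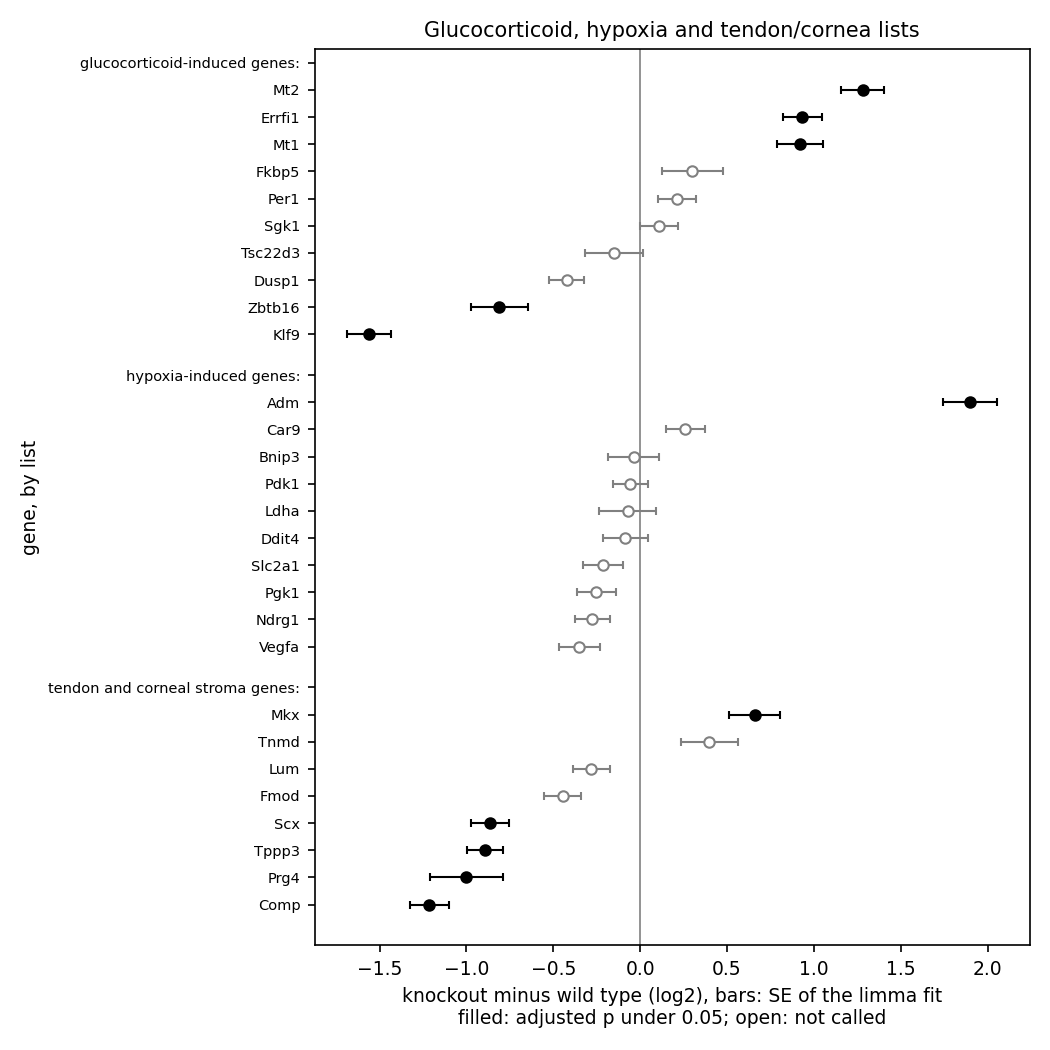
Differences (knockout minus wild type, log2, with SE) of the tested glucocorticoid-induced, hypoxia-induced, and tendon and corneal stroma genes; filled points passed a limma adjusted p of 0.05 and open points did not. Each list holds called genes beside uncalled ones, from Adm at 1.90 down to Klf9 at −1.56.

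The genes whose values over the 4 arrays were most like those of Angptl4 and Angptl7 were found as a description. Likeness was the root mean square difference of the log2 values over the 4 arrays, after each gene's own mean was subtracted. Unnamed and numbered loci were left out of the lists of 5. The 5 nearest to Angptl4 were Entpd3 (0.101), an ectonucleotidase gene, the ETS transcription factor gene Etv1 (0.110), the sphingosine phosphate receptor gene S1pr3 (0.124), the transcription factor gene Tfap2a (0.135) and Ppp1r3c (0.180), a glycogen-targeting phosphatase subunit gene. The 5 nearest to Angptl7 were the collagenase gene Mmp13 (0.173), Tfap2a (0.220), Angptl4 itself (0.230), the imprinted zinc finger gene Zim1 (0.234) and Lbh (0.234). Tfap2a was on both lists, at 3.93 and 3.74 in wild type against 6.66 and 6.49 in knockout. Angptl7 was in turn at place 10 by likeness to Angptl4, counted over all tested genes with unnamed and numbered loci kept. With 2 arrays per group, such likeness mostly reflects the size of the difference between the groups.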

How the data were processed

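Gene expression was measured on 4 arrays, 2 wild type and 2 Mmp14 knockout. The authors deposited log2 intensities for 41345 probe sets, from 0.43 to 12.2, with array medians of 2.32 to 2.37. Per the submitters' processing notes limma and oligo were used, and the normalization was not given in the sources used here. No scanner output or detection call was used, and precision is limited by there being 4 arrays.

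The probe annotation gave 1 symbol to 23521 probe sets, several to 1814 and none to 16010. The brightest 1-symbol probe set stood for each of 22180 genes, and 12708 with a mean of at least 2.34 (the median row mean) were fitted in R 4.3.3 with limma 3.58.1 (lmFit, eBayes, two-sided, Benjamini-Hochberg, called at adjusted p below 0.05; 2 residual and 3.99 prior degrees of freedom). The fit was tested on simulated data whose noise followed the variances fitted here, so that test says nothing of the calls in the real data. Replicate numbers were not treated as pairs, since deviations of same-numbered arrays correlated at −0.04.

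Named were the members, their relatives, hosts and neighbours, up to 4 genes of each list (called ones first, largest difference first) and the 5 nearest profiles of Angptl4 and Angptl7. Some further list members were named after their values were seen: called ones beyond 4, and uncalled ones given for comparison. Members and lists were chosen with earlier results of these data known. Alternatives covered the filter, a replicate block, normalization, the variance model, probe set means and leaving out each array. A fit of every probe set was added after seeing the data.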

Additional observations from a re-analysis of the deposited data

How the results depend on the processing

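The knockout minus wild-type difference (log2) of Angptl4 ranged from 2.68 to 2.84 on leaving out 1 array and from 2.74 to 2.76 under the other alternatives, Angptl7 from 2.87 to 3.17 and from 3.00 to 3.02, and Angptl1 from 0.10 to 0.23 and from 0.14 to 0.16. All of these kept their sign; with 2 arrays per group, leaving 1 out moves a mean by an amount that the replicate SD fixes, so these ranges show no stability of their own. The count of genes called was 1439 (11.3% of those tested). It was 2099 (16.5%) with trend and robust eBayes and 1644 (21.7% of 7583 tested) under the stricter filter, and 1124 (5.07% of 22180) without a filter. It ranged from 687 to 1131 on leaving out 1 array (957 when wild type replicate 2 was dropped, 687 and 896 when knockout replicate 1 or 2 was). It was 188 when all probe sets were fitted together, an alternative added after seeing the data, of which 187 were among the 1439; the cause was not tested. With the replicate block the count was 1057. The 28 called genes named here with Mmp14, Xist and Eif2s3y, but not Acan or the called stromal markers, were also followed. With the block 24 of them stayed called, the exceptions being Acadm (adjusted p = 0.0505), Prg4 (0.0715), Zbtb16 (0.0618) and Eif2s3y (0.085). Of the same 28, 25 stayed called without a filter, 26 under quantile normalization, all 28 with arrays centred on their medians, with trend and robust eBayes or with a gene's probe sets averaged, and 9 in the fit of every probe set. Apoe (0.0621), Mkx (0.0602) and Eif2s3y (0.0676) were the exceptions without a filter, and Apoe (0.0548) and Mkx (0.0501) under quantile normalization. The stricter filter left 17 of the 28 in the fit, all of them called. None of the 28 changed its direction under any of these alternatives. With 2 arrays per group and no detection calls, signal near the limit for dim genes, such as that of Angptl1, cannot be told from background.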
